A study of Mus musculus with 12 samples.

Results

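The Mir-26 family was measured by small RNA sequencing in the hippocampus of 12 male wild-type C57BL/6J mice, a standard inbred strain. Its members were the rows of the miRNA table whose first name was Mir-26 or a numbered paralogue of it, which gave 5 of 513 rows. The study asked whether exercise of a grandfather is linked to the hippocampal miRNAs of his grandsons. The exercised lineage was 6 F2 mice whose paternal-line grandfathers (F0) had exercised, and the sedentary lineage was 6 F2 mice of sedentary grandfathers. The labels give no treatment of the F2 mice themselves and no age. Each library came from its own numbered mouse, but the submitters' codes fall into 4 sets of 3 by their first characters, with R31 and R41 for exercised-lineage mice and S11 and S41 for sedentary-lineage mice. The meaning of these stems is not labelled. If they mark related mice, p-values that count each mouse as independent are too small.

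A miRNA gene is transcribed into a hairpin from which 2 arms are cut. One arm, the guide, is loaded into Argonaute and pairs with messenger RNAs through its seed, and the other, the passenger, is mostly degraded. Mir-26 genes lie in introns of the Ctdsp genes, which encode small phosphatases of the C-terminal domain of RNA polymerase II. These phosphatases act with the repressor REST to keep neuronal genes silent outside neurons. Mir-26 is known to rise during neural differentiation and to repress Ctdsp2, one of its own host genes.

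The family's 5p guides are shown first because every level below is read through them. RefSeq (GRCm38.p6) holds 3 mouse loci with 2 distinct guide sequences, printed 5′ to 3′ with the seed (bases 2 to 8) in capitals.
mmu-miR-26a-5p: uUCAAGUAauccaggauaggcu
mmu-miR-26b-5p: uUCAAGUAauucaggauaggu
Both carry the seed UCAAGUA, and among 1674 distinct mature mouse sequences in RefSeq no other one carried it. Counted from the 5′ end, 26b differs from 26a by C11U and C21U over the 21 bases they share, and 26a has 1 base more. The 3p passengers differ between all 3 loci, so they are the arms that can be told apart by locus.
mmu-miR-26a-1-3p: cCUAUUCUugguuacuugcacg
mmu-miR-26a-2-3p: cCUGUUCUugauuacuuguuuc
mmu-miR-26b-3p: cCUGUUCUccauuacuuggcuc
The passengers of Mir26a-2 and Mir26b share the seed CUGUUCU and differ at 4 of 22 positions (U9C, G10C, U19G and U20C). The passenger of Mir26a-1 has the seed CUAUUCU and differs from that of Mir26a-2 at 6 positions.

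The hairpins show how the arms face each other, with both mature arms in capitals.
Mir26a-1: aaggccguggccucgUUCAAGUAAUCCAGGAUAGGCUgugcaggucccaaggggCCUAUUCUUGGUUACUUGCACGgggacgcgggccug
Mir26a-2: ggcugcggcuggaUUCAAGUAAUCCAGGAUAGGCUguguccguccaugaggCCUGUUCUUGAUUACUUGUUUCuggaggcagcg
Mir26b: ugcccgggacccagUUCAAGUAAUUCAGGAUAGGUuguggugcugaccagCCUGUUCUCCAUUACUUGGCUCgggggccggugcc
All 3 lie on the plus strand, like their hosts. In the GENCODE M21 annotation of mm10, Mir26a-1 is on chromosome 9 (119031796 to 119031885) in intron 5 of 7 of the longest annotated Ctdspl transcript. Mir26a-2 is on chromosome 10 (126995530 to 126995613) in intron 5 of 7 of the longest Ctdsp2 transcript. Mir26b is on chromosome 1 (74394310 to 74394394) in intron 4 of 6 of the longest Ctdsp1 transcript. In each of these transcripts 2 introns follow the one with the hairpin. The introns are of unequal length, with 3283 bases in Ctdspl, 1946 in Ctdsp2 and 564 in Ctdsp1. A shorter annotated protein-coding transcript of Ctdsp2 begins at base 126995613, the last base of the Mir26a-2 hairpin. Host transcripts were not measured here.

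**Figure D1:**
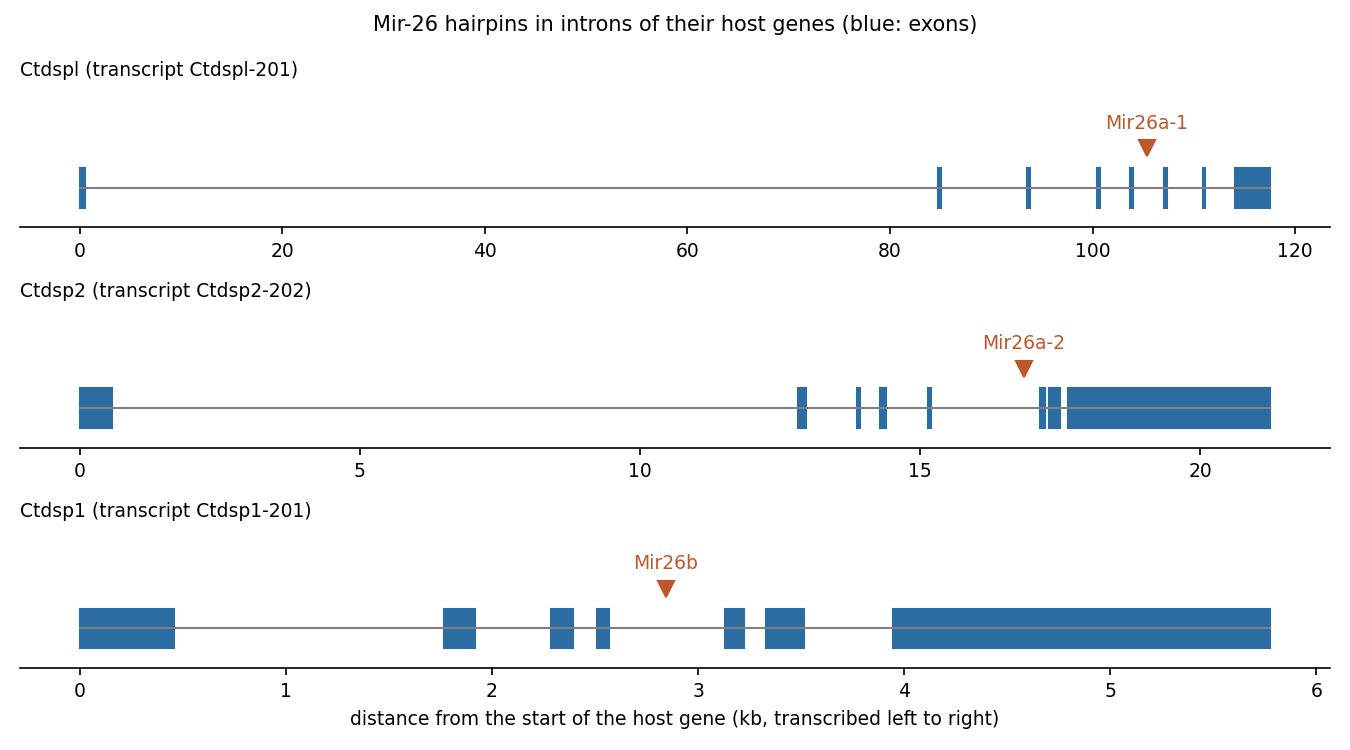
Each panel plots 1 host transcript against the distance from the start of its gene in kilobases, with exons in blue, introns as a grey line and the hairpin as a triangle. The hairpin lies in intron 5 of 7 in Ctdspl and Ctdsp2 and in intron 4 of 6 in Ctdsp1, near the 3′ end of Ctdspl and Ctdsp2 and near the middle of Ctdsp1.

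The table names the loci P1, P2 and P3, after MirGeneDB, and gives no sequences. The 5p arms of P1 and P2 share 1 row, and the 26a loci are the ones with identical 5p arms, so P1 and P2 were taken as the 26a loci and P3 as Mir26b. This naming is an inference, since a joined row need not mean identical sequences: the Mir-103 row joins loci whose miRNAs, miR-103 and miR-107, are known to differ in sequence. Which of P1 and P2 is Mir26a-1 is not given, and they are named here as P1 and P2. The 5 rows are thus the 26a guide (P1 and P2 together), the 26b guide (P3) and 1 passenger row for each of the 3 loci. How many mismatches the alignment allowed is not given in the sources used here, so reads may have passed between the 26a and 26b rows, and this was not tested.

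Depth ran from 6862623 to 10219856 reads per library, with the step between values of a library taken as 1 read. Values below are normalized counts, the authors' reads divided by 1 size factor per library. They are not divided by length, and adapter ligation is known to favour some small RNAs over others, so ratios between arms are ratios of reads. Neuronal marker miRNAs (Mir-9, Mir-124, Mir-128, Mir-138 and Mir-129) held 29.7% to 35.1% of the counts of exercised-lineage and 30.4% to 34.9% of sedentary-lineage libraries, and none of their 12 rows was at 0 in any library. Most of that sum was the Mir-9 guide, at 2056516 ± 447264 (exercised) and 2131174 ± 167829 (sedentary) normalized counts (SD, n = 6 each). The Mir-124 guide had 44838 ± 14706 and 33932 ± 8085, so the sum does not show each marker. The markers of choroid plexus and ependyma spread 5.31-fold over the libraries, from 0.559% to 2.77% (exercised) and from 0.521% to 2.44% (sedentary). Of the 11 marker lists, those of epithelium (11.5-fold) and liver (6.49-fold) spread more, at shares of at most 0.307%. The mural list spread 2.63-fold, from 2.89% to 7.60%, and the others less. In whole tissue, fewer cells of a type and less RNA per cell cannot be told apart.

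The 26a guide was the 7th most abundant row of the table and held almost all of the family's reads. In the exercised lineage it stood at 231812, 308994, 317529, 306771, 290018 and 252602 normalized counts in replicates 1 to 6. In the sedentary lineage it stood at 310372, 298280, 324595, 268775, 312908 and 381742. F2_exercised replicate 1 was the lowest library and F2_sedentary replicate 6 the highest, and the lineages overlapped. The same F2_exercised replicate 1 also had the lowest total of normalized counts, 6458450, where the other libraries had 7793644 to 9370388. The family held 3.65% of the counts of that library, above the exercised-lineage median of 3.54%. The lowest share of the family was 3.11%, in F2_exercised replicate 6. The means of the 26a guide were 284621 ± 34672 and 316112 ± 37366 (SD, n = 6 each), and the sedentary median exceeded 5 of 6 exercised-lineage values. The row above it in level, Mir-127_3p, was higher than the 26a guide in 9 of 12 libraries, so the order of these neighbours was not the same in every mouse. The row below it, Let-7-P12_5p, was lower in 12 of 12.

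The 26b guide was the 87th row and stood far below 26a. It had 3844, 4441, 5214, 5565, 4753 and 5761 normalized counts in the exercised lineage and 4832, 4646, 7055, 4347, 4886 and 4612 in the sedentary lineage. F2_sedentary replicate 3 stood above all other libraries and F2_exercised replicate 1, with the lowest total of normalized counts, below them. The means were 4930 ± 725 and 5063 ± 994 (SD, n = 6 each). The rows next to it in level were Mir-15-P2a_5p with its copy, at 5251 ± 943 over the 12 libraries and above 26b in 8 of them, and Mir-674_3p*, at 4920 ± 573 and above it in 6. These neighbours did not differ from 26b beyond their spread.

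The passengers stood far below the guides, at rank 346 (P2), 404 (P3) and 511 (P1) of the 513 rows. The P2 passenger had 70.3, 80.8, 77.7, 72.4, 53.0 and 72.8 normalized counts in replicates 1 to 6 of the exercised lineage and 63.3, 67.6, 52.1, 82.8, 78.2 and 87.0 in those of the sedentary lineage, from 42 to 96 reads per library. The P3 passenger had 34.2, 21.9, 21.8, 30.04, 32.9 and 11.97 (exercised) and 17.0, 51.2, 23.6, 20.0, 32.9 and 26.3 (sedentary), from 12 to 50 reads. The P1 passenger was listed at 0 in 4 of 12 libraries, 2 of each lineage, and did not exceed 8.24 normalized counts or 10 reads in any library. The other libraries' mean corresponds to 3.28 to 5.03 reads in the libraries listed at 0. The smallest positive value listed in a library was 2 to 6 steps, so that row was near the lowest values of the table. Whether a 0 there means no reads or a low count that was not kept was not tested. In the order of levels P2 exceeded P3 and P3 exceeded P1 in 12 of 12 libraries each. Of the reads on the 26a passengers, the P1 share did not exceed 7.32% in any exercised-lineage library or 10.8% in any sedentary-lineage library.

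**Figure D2:**
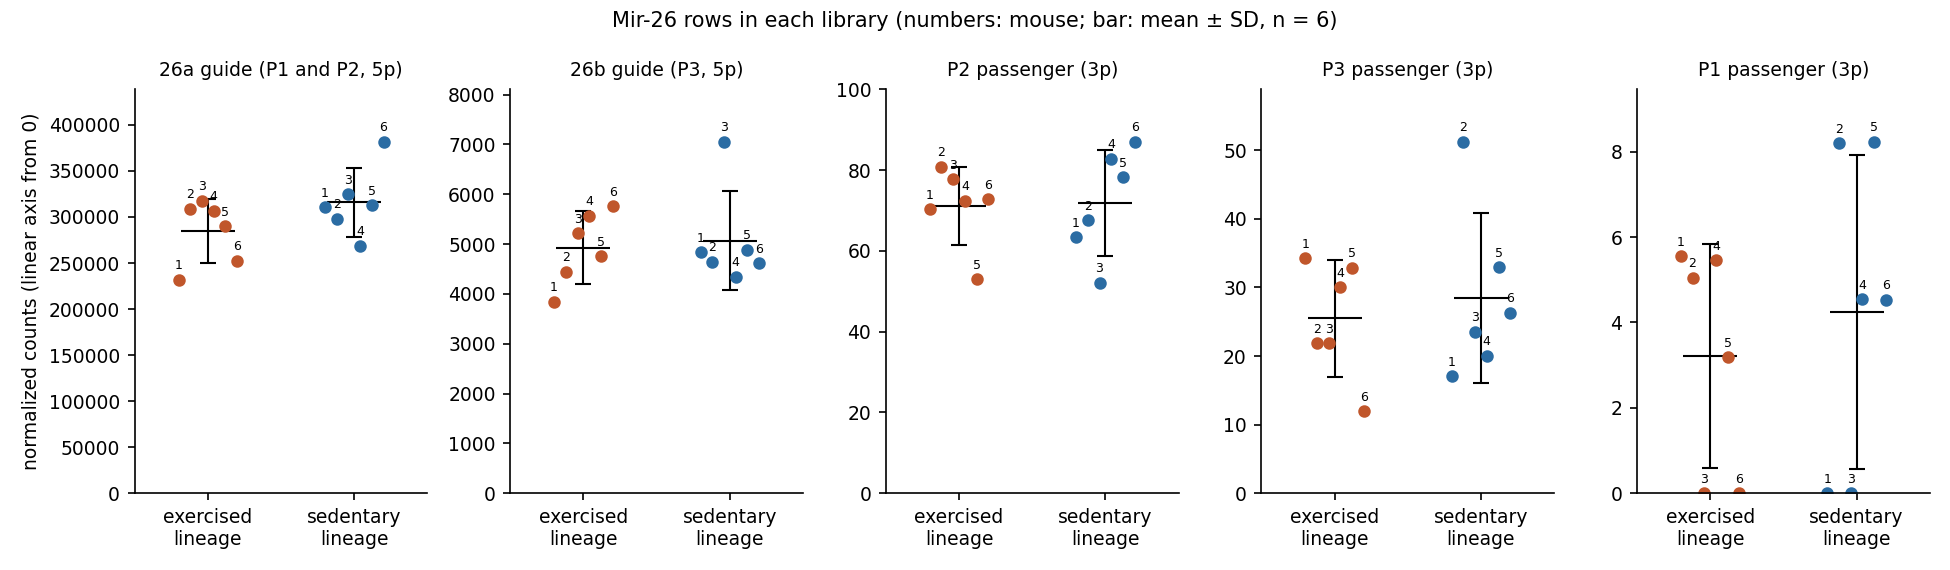
Each panel plots 1 Mir-26 row in normalized counts on a linear axis from 0, with 1 point per library (the number is the mouse) and a bar for mean ± SD, n = 6 per lineage. The lineages overlap in all 5 rows. The 26a guide is lowest in F2_exercised replicate 1 at 231812 and highest in F2_sedentary replicate 6 at 381742. F2_exercised replicate 1 also has the lowest total of normalized counts. The 26b guide is highest in F2_sedentary replicate 3 at 7055.

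Together the 5 rows held 3.57% ± 0.351 (exercised) and 3.73% ± 0.328 (sedentary) of all normalized counts (SD, n = 6 each). Within the family, 26a guide reads made up 97.7% to 98.8% in every library, 26b guide reads 1.19% to 2.23%, and the 3 passengers 0.0228% to 0.0467%. The 26a guide exceeded the 26b guide 58.5 ± 8.53-fold (exercised) and 63.8 ± 11.7-fold (sedentary). The range ran from 43.8 in F2_exercised replicate 6 to 82.8 in F2_sedentary replicate 6.

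The arms of Mir-26 were strongly unequal, and more so for 26a than for 26b. The 26a guide exceeded the sum of its passengers 4103 ± 924.2-fold over the 12 libraries, and the 26b guide exceeded its passenger 215 ± 105-fold. Among 175 guides with at least 1 passenger row of the same locus, 26a had the 7th highest ratio (11.95 ± 0.30 on the log2 scale, SD, n = 12) and 26b the 36th (7.55 ± 0.63), where the median guide had 4.64. The guides of Mir-218 and Mir-128, which are also encoded in introns of paired host genes, had 13.23 and 10.59. For Mir-218 the passenger row covers 1 of its 2 loci. A guide without a passenger row could not be ranked. The log2 ratio was formed with 1 added to guide and passengers, so it cannot exceed the log2 level of the guide. Its rank therefore depends in part on abundance, and the 26a guide was itself the 7th most abundant row.

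**Figure D3:**
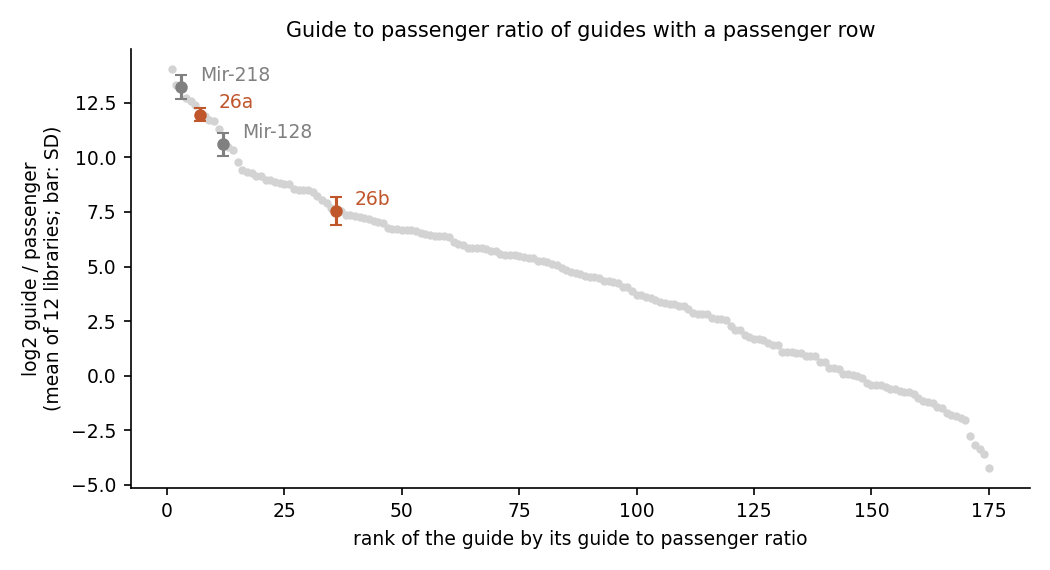
The plot shows the mean log2 ratio of guide to passenger over 12 libraries for 175 guides against their rank, with bars for SD on the marked guides. The 26a guide sits 7th at 11.95 and the 26b guide 36th at 7.55, with Mir-218 and Mir-128 on either side of 26a.

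No Mir-26 arm differed between the lineages beyond the spread between mice. All 4 arms that could be tested had a fold below 0, that is, lower in the exercised lineage, where 238 of 474 arms (50.2%) did so. With libraries scaled by totals or by their upper quartile, 2 of the 4 were above 0, the 26b guide (0.055 and 0.052) and the P2 passenger (0.081 and 0.078). The folds were small: -0.15 for the 26a guide, -0.032 for the 26b guide, -0.0046 for the P2 passenger and -0.14 for the P3 passenger. They are differences of log2(value + 1), which understates changes of low values, and the P1 passenger had too low a mean to be tested. In limma 0 of 474 arms (0.00%) passed an adjusted p of 0.05, and 34 (7.17%) had an unadjusted p below it, with no Mir-26 arm among them.

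For the 26a guide the 95% confidence interval was -0.37 to 0.067 (SE 0.10, limma adjusted p = 0.576), so a drop of more than about 0.37 on the log2 scale lay outside it. The fold lay between -0.20 and -0.095 with any 1 library left out. It was -0.066 with libraries scaled by their totals, where the median of all arms moved from -0.0013 to 0.085. For the 26b guide the interval was -0.32 to 0.25 (limma adjusted p = 0.960), and its fold changed sign, to 0.067, without F2_sedentary replicate 3 and, to 0.037, without F2_exercised replicate 1. The P2 passenger had an interval of -0.33 to 0.32, and its sign also depended on the libraries used. The P3 passenger, with fewer reads, had the widest interval of the 4, -0.81 to 0.53, and its fold was 0.050 without F2_exercised replicate 6 and 0.043 without F2_sedentary replicate 2.

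**Figure D4:**
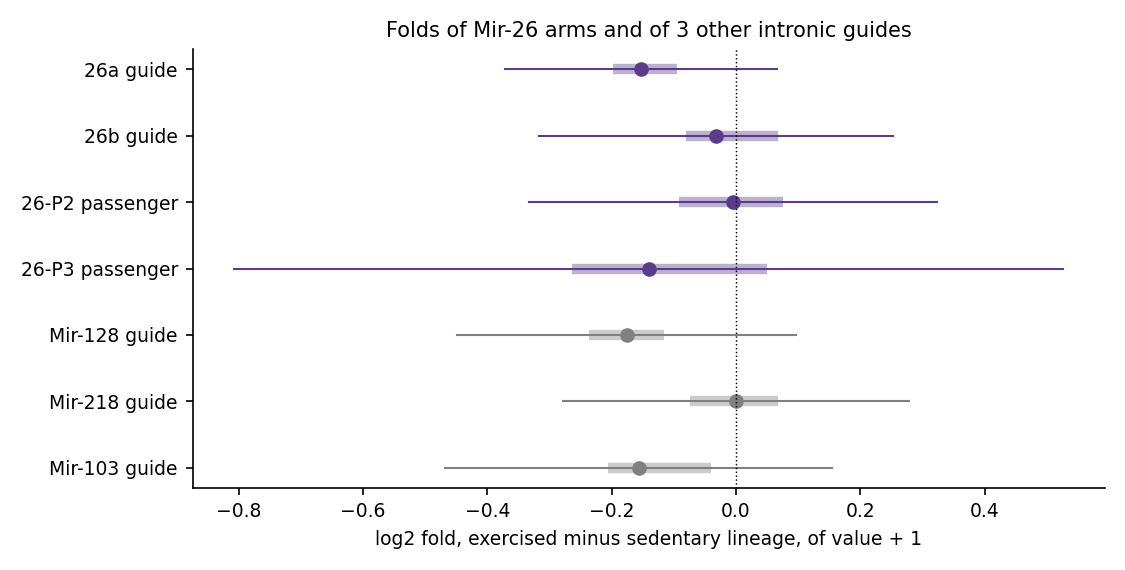
Points give the log2 fold (exercised minus sedentary lineage, of value + 1) from limma, thin lines the 95% confidence interval and thick bands the range with any 1 library left out. Mir-26 arms are in purple and guides of 3 other intronic families in grey; every interval spans 0, and the bands of the 26b guide and both passengers also cross 0.

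Values formed within a library, a share of its counts or a ratio of its arms, were also compared, and none passed its test. A size factor enters the ratios only through the pseudocount of 1, which matters where counts are low. For 8 such values exact permutation tests over all assignments were run (two-sided), with p-values adjusted over the 8. The family's share of counts differed by -0.16 percentage points (95% interval from inverting the exact test, -0.60 to 0.28, exact p = 0.437, adjusted 0.913). That difference was -0.041 without F2_sedentary replicate 6, the library with the highest share, and -0.065 without F2_exercised replicate 6, the lowest. The log2 ratio of the 26b to the 26a guide was -5.86 ± 0.22 (exercised) and -5.98 ± 0.27 (sedentary; SD, n = 6 each), a difference of 0.12 (-0.19 to 0.46, exact p = 0.411, adjusted 0.913). In 5 of 6 exercised-lineage libraries it lay above the sedentary median. The difference was 0.040 without F2_exercised replicate 6, 0.041 without F2_sedentary replicate 6 and 0.21 without F2_sedentary replicate 3.

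Arm choice, read as guide to passenger, also overlapped between the lineages. For 26a the log2 ratio was 11.88 ± 0.25 against 12.02 ± 0.35 (SD, n = 6 each), a difference of -0.14 (-0.53 to 0.25, exact p = 0.457, adjusted 0.913). It was -0.024 without F2_sedentary replicate 3, -0.071 without F2_exercised replicate 1 and -0.23 without F2_sedentary replicate 4. For 26b it was 7.60 ± 0.69 against 7.49 ± 0.63, a difference of 0.11 (-0.72 to 0.99, exact p = 0.792, adjusted 0.913). This difference became -0.13 without F2_exercised replicate 6, whose 26b passenger was the lowest. The ratio of the P1 to the P2 passenger differed by -0.21 (-1.99 to 1.52, exact p = 0.686, adjusted 0.913), with values of 0 entering through the pseudocount of 1. With a pseudocount of 10 it differed by -0.088, and it ran from -0.56 to 0.15 with any 1 library left out.

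**Figure D5:**
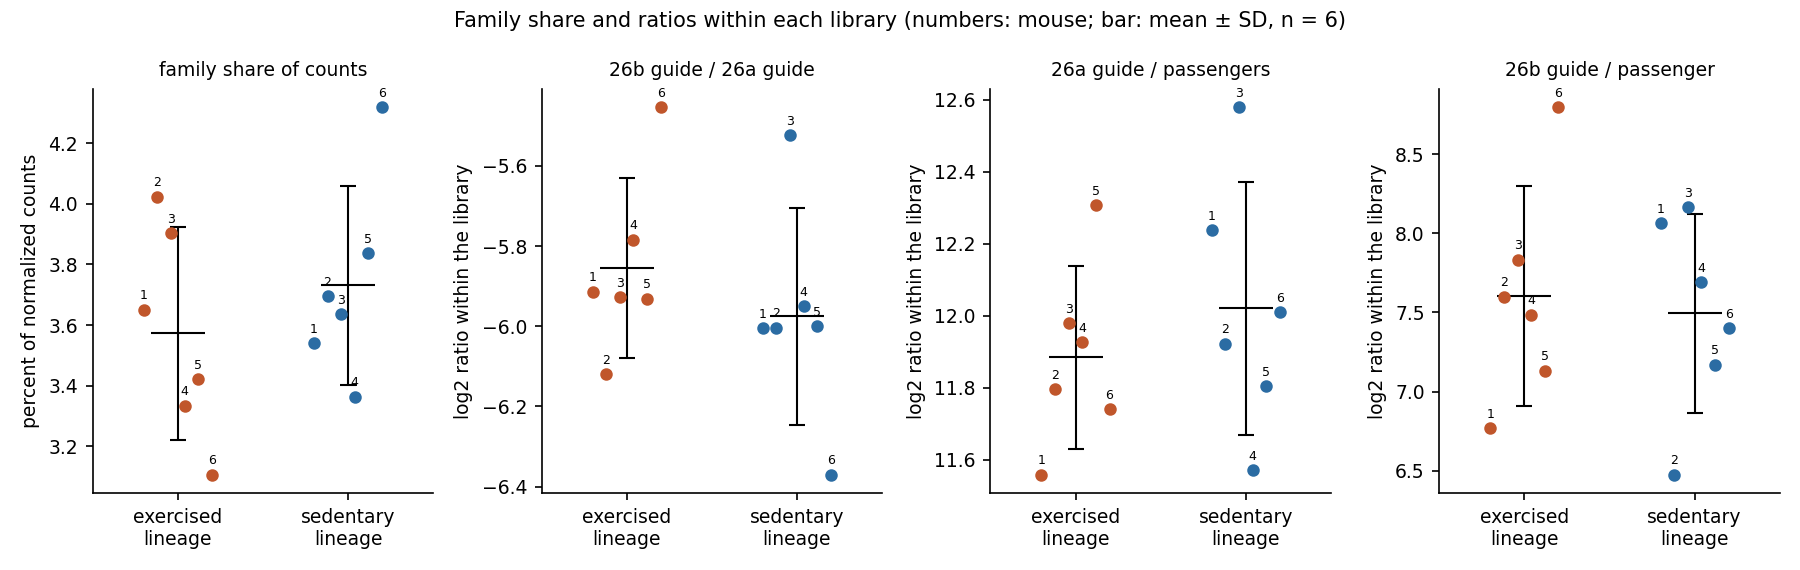
Panels plot the family's share in percent and 3 log2 ratios within each library, with 1 point per library (the number is the mouse) and a bar for mean ± SD, n = 6 per lineage; the axes do not start at 0. The lineages overlap in every panel, and F2_sedentary replicate 6 has both the highest share, 4.32%, and the lowest ratio of 26b to 26a.

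The Mir-26 guides were set against guides of Mir-128, Mir-218 and Mir-103, which lie in introns of their own paired or triple host genes (the Mir-103 row joins 3 loci). Their folds were -0.18 for Mir-128, 0.00033 for Mir-218 and -0.16 for Mir-103, and none passed. The log2 ratio of the summed Mir-26 guides to Mir-128 was -0.79 ± 0.13 (exercised) and -0.82 ± 0.24 (sedentary; SD, n = 6 each), a difference of 0.025 (-0.22 to 0.28, exact p = 0.799, adjusted 0.913). Against Mir-218 the difference was -0.15 (-0.46 to 0.15, exact p = 0.292, adjusted 0.913), and the sedentary median exceeded 5 of 6 exercised-lineage values. It was -0.091 without F2_sedentary replicate 5. Against Mir-103 it was 0.0058 (-0.30 to 0.32, exact p = 0.950, adjusted 0.950). A fold particular to Mir-26 was thus not detected against any of the 3.

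Since the Ctdsp hosts act with REST, miRNAs linked to that circuit were also listed: Mir-9, Mir-124, Mir-132 with Mir-212, Mir-29 and Mir-153. All 17 of their rows could be tested, and in limma 0 were called and 0 had an unadjusted p below 0.05. Of the folds, 13 were above 0 and 4 below, with a median of 0.091, while over all 474 arms 236 were above 0 and 238 below, with a median of -0.0013. The most abundant of the list were the Mir-9 guide with a fold of -0.080, Mir-29-P1a_3p with 0.12, the neuronal Mir-124 guide with 0.38 and the Mir-9 passenger with 0.046. The folds of the list ran from -0.30 (Mir-132-P2_5p) to 0.38 (the Mir-124 guide). The 26a fold of -0.15 lay on the other side of 0 from the list's median but within that range. The difference from the median was not tested.

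Correlations among the members over the 12 libraries were weak, and none of 3 passed. The 26a and 26b guides had a Pearson r of 0.30 (permutation p = 0.334, adjusted 0.5005) and a Spearman rho of 0.35 (permutation p = 0.264, adjusted 0.577), with r = 0.20 without the 2 libraries farthest from the median of 26a. The 26a guide and the P2 passenger had an r of 0.11 (permutation p = 0.733, adjusted 0.733) and a rho of 0.13 (permutation p = 0.684, adjusted 0.684), with r = -0.23 without the same 2 libraries. The 26b guide and its own passenger had an r of -0.32 (permutation p = 0.311, adjusted 0.5005) and a rho of -0.28 (permutation p = 0.384, adjusted 0.577), with r = -0.32 without its 2 farthest. The 12 to 50 reads of the P3 passenger limit that last value.

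Among arms outside the family, the Mir-212 gene's 5p arm and 2 let-7 arms were among those closest to the pattern of the 26a guide. By Pearson r of log2(value + 1) over 12 libraries among 470 arms, the most alike were Mir-132-P2_5p of the Mir-212 gene (0.92), Mir-10-P3a_5p (0.91), Let-7-P4_5p (0.91), Mir-1198_5p (0.90) and Let-7-P12_5p (0.89). The least alike were Mir-181-P2a_3p* (-0.88), the Mir-124 guide (-0.86) and Mir-431_5p (-0.86), and the median arm had -0.031. All points share the libraries and their size factors, and these arms were picked as the extremes, so the values are a description. F2_exercised replicate 1 was lowest for 26a and had the lowest total of normalized counts. Without it, the 5 most alike had 0.84 to 0.89 and the 3 least alike -0.80 to -0.77.

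The spread of the members over mice was set beside that of rows near in rank of level, up to 10 above and 10 below. For the 26a guide and the P1 passenger, the order of levels ended before all of these were reached. For the 26a guide the coefficient of variation over 12 libraries was 12.7%, against a median of 15.5% for 16 such rows, of which 4 varied less. For the 26b guide it was 16.7% against 12.4% for 20 rows, of which 12 varied less, and for the P2 passenger 15.5% against 22.3%, of which 3 varied less. The P3 passenger had 38.0% against 35.7% for 20 rows, of which 11 varied less. The P1 passenger had 83.1% against 103.9% for 12 rows, of which 1 varied less.

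The submitter code stems were compared within each lineage for 4 arms, without a test. Of these 8 pairs, 1 did not overlap, the P2 passenger in the sedentary lineage, and it was picked from them after its values were seen. The 3 S11 libraries had 52.1 to 67.6 normalized counts (61.0 ± 8.04, SD, n = 3) and the 3 S41 libraries 78.2 to 87.0 (82.7 ± 4.39), with no overlap. Over all 474 tested arms the S11 and S41 libraries did not overlap for 25 (5.27%), and the R31 and R41 libraries for 81 (17.1%). For the same P2 passenger the R31 and R41 libraries had 76.3 ± 5.40 and 66.1 ± 11.3. For the 26a guide the stems had 286112 ± 47218 (R31), 283130 ± 27733 (R41), 311082 ± 13172 (S11) and 321142 ± 56932 (S41), all overlapping.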

How the data were processed

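The deposited table holds a signal, namely the reads of each mature miRNA arm scaled by the authors with 1 size factor for a library. The authors used Bowtie 1.3.0, DESeq2 and the build mm10, per the submitters' processing notes. Settings for trimming, mismatches and multiply matching reads were not given in the sources used here, while the labels' protocols name a Qiagen miRNA extraction kit and an NEB small RNA library kit. Every value was a whole multiple, within 0.01, of 1 step per library, which gave the depth. PCR copies were not told apart from molecules.

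Samples were grouped by title. limma 3.58.1 in R 4.3.3 (empirical Bayes with a mean-variance trend) was fitted on log2(value + 1) over all 474 arms with a mean of at least 10, with Benjamini-Hochberg adjustment. It was tested on simulated data with independent libraries and changes all larger than the folds of this family. That test cannot tell whether changes of the family's size would be found. Single values were compared by exact permutation tests. Members and lists were chosen with earlier results of these data known. Named rows are the family, 3 intronic comparison guides, the 4 most abundant arms of the REST list, level neighbours and the 5 most and 3 least alike arms. Alternatives covered pseudocount, filter, scaling, block and left-out libraries. Sequences come from RefSeq GRCm38.p6 by symbol, where all 3 loci matched.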

Additional observations from a re-analysis of the deposited data

Results flagged for a closer look

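A library was marked where its gap to the nearest of its lineage exceeded the critical share of the lineage's range (Dixon's test at the 95% level), for 32 groups of 6 values. Chance alone marks about 1 group in 20. The 26b guide stood at 7055 normalized counts in F2_sedentary replicate 3, where the next highest sedentary-lineage library had 4886. The same library was second highest for the 26a guide, at 324595, and its 26b passenger was within the range of the others, at 23.6. The Mir-103 guide was low in F2_exercised replicate 1, at 15576 against 23233 in the next library. F2_exercised replicate 1 also had the lowest total of normalized counts. The Mir-103 guide was high in F2_sedentary replicate 1, at 35255 against 26131.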

How the results depend on the processing

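The results were recomputed under the alternatives, and no arm of the family and 0 of all arms were called by limma in any of the 22. The fold of the 26a guide kept its sign in all 22. With libraries scaled by totals or by their upper quartile, folds became 0.055 and 0.052 for the 26b guide and 0.081 and 0.078 for the P2 passenger, the median of the REST list became 0.18 and 0.17 and the median of all arms 0.085 and 0.083. Without the R31 libraries the fold of the 26b guide was 0.097 and the ratio of the Mir-26 guides to Mir-103 differed by -0.18. The family share then differed by -0.44 percentage points (exact permutation p = 0.0714, adjusted 0.540). The 26b to 26a ratio then differed by 0.25 and the ratio to Mir-218 by -0.28. Without R41, the folds were 0.10 for the P2 passenger and -0.16 for the 26b guide, and the family share differed by 0.13 percentage points. The 26b to 26a ratio then differed by -0.012 and the 26b guide to passenger ratio by -0.093. The ratios to Mir-128 and Mir-103 differed by -0.017 and 0.19. Without S11, the folds were 0.083 for the 26b guide and -0.22 for the P2 passenger, the P1 to P2 passenger ratio differed by -0.81, the 26a guide to passenger ratio differed by 0.090, and the ratios to Mir-128 and Mir-103 by -0.086 and -0.090. Without S41, the folds were 0.22 for the P2 passenger and -0.15 for the 26b guide. The 26a guide to passenger ratio then differed by -0.36, the 26b to 26a ratio by -0.011 and the P1 to P2 passenger ratio by 0.40. With 1 library left out, signs changed within ranges of -0.080 to 0.067 for the 26b guide, -0.092 to 0.076 for the P2 and -0.26 to 0.050 for the P3 passenger. In the same way the ratio to Mir-128 ran from -0.038 to 0.071, that to Mir-103 from -0.087 to 0.067, the 26b guide to passenger ratio from -0.13 to 0.27 and the P1 to P2 ratio from -0.56 to 0.15. The cause of these changes was not tested. Mouse numbers do not pair the lineages in the labels, and the correlation of deviations of same-numbered mice ran from -0.17 to 0.15, with 1 of 6 closest to its own number. With a replicate block the 26a fold was -0.15 (limma adjusted p = 0.746), and no call changed. The planned count models were not run, because the smallest value of a library is 2 to 6 steps and no value shows a single step, so reading 1 step as 1 read stayed an assumption. The P1 and P3 passengers are limited by their few reads.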
